A study of Oncorhynchus mykiss with 38 samples.

Results

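A set of 224 of the 9024 cDNA clones measured on nylon arrays of rainbow trout (Oncorhynchus mykiss) testis had its lowest signal in spawning testis. Clones were chosen on group means of the log2 signal: the lowest mean among the 8 other groups had to lie at least 0.5 above the stage VIII mean, and the stage I mean had to be 8.17 or more, close to the median of every array (8.17). Both limits were met by 238 clones. Of these, 7 were left out because their mean rose by 0.8 or more between stages IIb and IIIb, 3 because they belong to Ddx4 or cct8, and 4 because they belong to the ribosomal protein genes rps20, rps24, rpl27a and rs21. The symbol rs21 was read as a short form of ribosomal protein S21, and 225 clones would remain if it were kept. A further 19 clones met the gap but lay under the stage I level.

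The arrays covered whole testes at 6 stages and 3 germ cell fractions from males of a fish farm, whose ages are not given in the sources used here. All stages hold somatic cells beside germ cells. Of germ cells, stage I testes (n = 5) hold type A spermatogonia alone, and stages IIa (n = 4) and IIb (n = 4) also few or more type B spermatogonia. Spermatocytes appear in stage IIIb (n = 3) and spermatids in stage V (n = 4). Stage VIII testes (n = 3) come from spawning males and hold mainly sperm and somatic cells. As sperm contain very little RNA, the paper proposes that stage VIII signals likely stand for the somatic cells, which was not tested here. The fractions enriched in spermatogonia (n = 6), spermatocytes (n = 6) and spermatids (n = 3) were separated by elutriation from pooled testes, the first from immature and the others from maturing males, and each is an enrichment and not a pure cell type. By the paper's Methods, stages I to IIb were sampled in February and March, IIIb and V in April and May, and VIII in October. Stage and season thus cannot be told apart between these sets of stages. The labels do not say whether the samples of a group came from separate males, and p-values therefore refer to the spread among the samples at hand.

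In trout, sperm production follows a yearly cycle. Spermatogonia divide, enter meiosis as spermatocytes and become spermatids, which condense their chromatin, shut down most transcription and shed most of their cytoplasm before sperm are stored in the spawning testis. Genes of growing and dividing cells, such as chaperones and the machinery of protein turnover and DNA replication, are therefore read in RNA from a whole testis against a changing mixture of cells. In such bulk RNA, fewer cells of a type and less RNA per cell cannot be told apart.

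The difference between stage VIII and the other groups chose the clones and is given here as a description without a test. Over the 224 clones, the median signal was 8.74, 8.68 and 8.56 on the 3 stage VIII arrays. On the 35 other arrays it lay between 9.46, in stage IIa replicate 1, and 10.15, in spermatogonia replicate 2. Every stage VIII array thus lay below every other array in this median, as the choice of clones required of the group means.

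**Figure D1:**
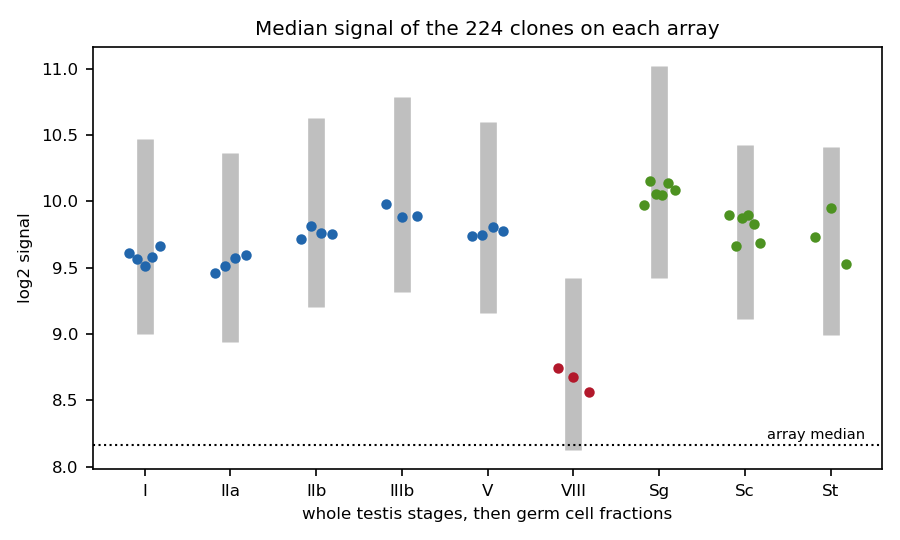
Median log2 signal of the 224 clones on each of the 38 arrays (points; red stage VIII, blue other whole testes, green germ cell fractions), by group, with the interquartile range of the clones' group means (grey bars) and the median of all clones on an array (dotted line). The 3 stage VIII points lie between 8.56 and 8.74 and all others between 9.46 and 10.15.

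The size of the drop varied among the clones. The gap between stage VIII and the lowest other group had a median of 0.64 and a largest value of 1.45, with 95 clones under 0.6 and 23 at 1 or more. Against the mean of the 8 other groups, the median drop was 0.97 on the log2 scale, or 1.95-fold, with a range from 0.63 to 2.38. The clones just inside the limit were tcay0031.o.15, tcay0022.i.06 and 1rt63i22_c_e11, each with a gap of 0.50, and those just outside were tcba0006.h.21 (0.4999), 1rt82a16_c_a08 (0.4998) and 1rt147n15_b_g08 (0.4987), so that no break in the values separates members from other clones. Lowest of all in stage VIII were 2523 of the 9024 clones.

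On single arrays the drop was less uniform than in the means. In 130 clones all 3 stage VIII arrays lay below all 35 others, a pattern seen in 2.85% of all clones and favoured by the choice itself. In 173 clones they lay below every other array of whole testis, which the choice also favours. The share of all clones with this second pattern was not counted. In the remaining clones at least 1 array of another group overlapped stage VIII.

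Stage VIII means lay above the array median in 162 clones and under it in 62 (27.7%), against at most 4 in any other group. Both the gap and the stage I level shape these counts. Among the clones at the stage I level, 16.1% lay under the array median in stage VIII. In 55 clones the mean was under the array median in stage VIII and above it in every other group. This count is shaped by the choice as well and was not taken over all clones. In stage I, 174 clones (77.7%) lay at 8.91 or more, the upper quartile of the array, against 49.1% of the 4497 clones that met the stage I level. Across the 224 clones the mean level over the 8 other groups and the gap had a Spearman rho of 0.23, over clones that share the same arrays.

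The range of the 8 other group means had a median of 0.74 and was under 0.5 in 61 clones. It was smaller than the drop to stage VIII in 203, a count that the required gap favours. Group medians of the clones' means were 9.57 in stage I, 9.55 in stage IIa, 9.77 in IIb, 9.92 in IIIb and 9.78 in V. In the fractions they were 10.08 for spermatogonia, 9.85 for spermatocytes and 9.72 for spermatids. The highest of the 8 means was that of spermatogonia in 108 clones (48.2%, against 16.2% of all clones), of stage IIIb in 36 (16.1% against 6.68%) and of spermatocytes in 27 (12.1% against 11.8%, near the share of all clones). The lowest was that of stage IIa in 62 clones (27.7% against 14.6%), of spermatids in 48 (21.4% against 17.0%) and of stage I in 46 (20.5% against 14.8%).

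**Figure D2:**
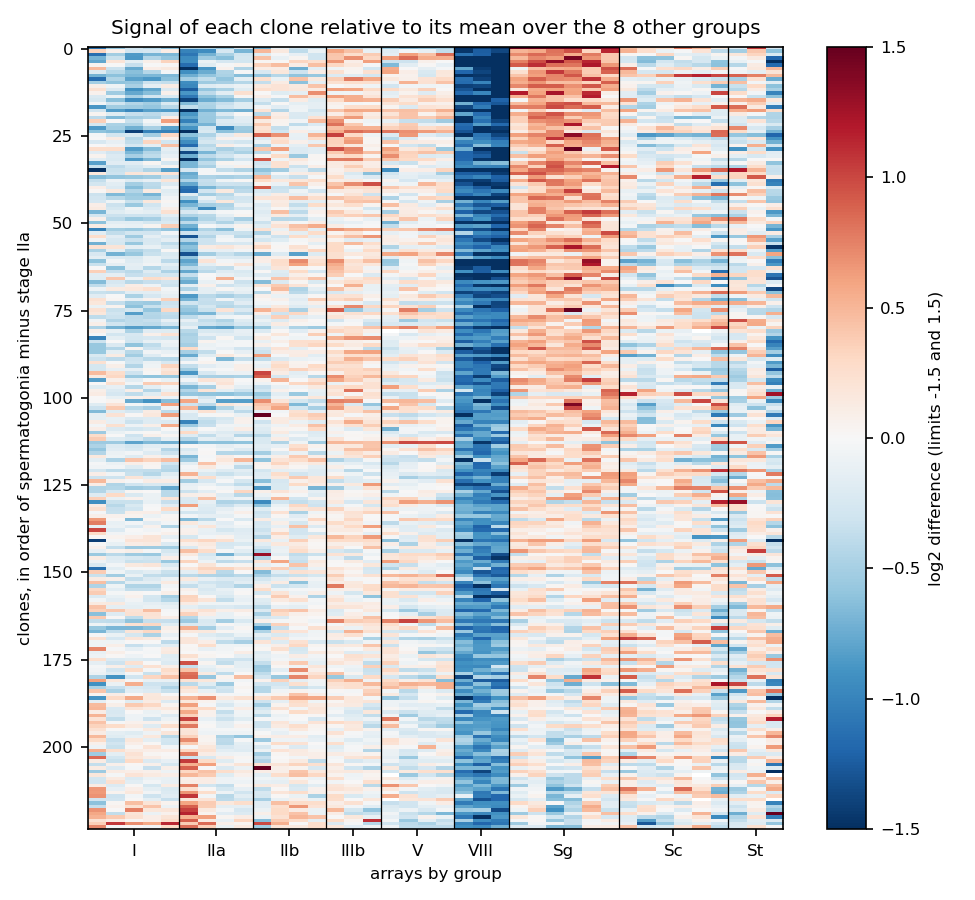
Log2 signal of each of the 224 clones (rows, in order of the difference between spermatogonia and stage IIa) on each array (columns by group: whole testis stages I to VIII, then spermatogonia, Sg, spermatocytes, Sc, and spermatids, St), relative to the clone's mean over the 8 groups other than stage VIII. The stage VIII columns are low in all rows by the choice of clones. The spermatogonia columns are high in the upper rows, which the order of the rows favours.

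In stages IIa and V and the 3 fractions, levels were bound directly by the choice only through a floor above stage VIII. This floor sets no order among these groups, but it left out clones high in stage VIII and low in a fraction or in stage V. Collagen clones are of this kind, and all 3 were lower in spermatogonia than in stage IIa. The choice can therefore favour higher calls over lower calls in spermatogonia and in stage V. The stage I level and the cap on the rise from IIb to IIIb may also bear on the neighbouring stages. Clones were compared among stages IIa and V and the fractions with limma, a moderated test. Its linear model was fitted to all 9024 clones and 38 arrays. Calls were made at a Benjamini-Hochberg adjusted p under 0.05 over all clones. An F-test over the 5 groups, at an adjusted p of at most 0.005, was passed by 99 of the 224 clones (44.2%, against 29.5% of all clones and 39.7% of the 4497 clones at the stage I level). It was not passed by 125.

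Among the 5 comparisons, the most calls came from isolated spermatogonia against stage IIa testis, an immature testis in which type B spermatogonia are rare. As the paper's Methods state, fractions were digested with collagenase, shaken overnight and spun on Percoll before elutriation, while whole testes were frozen. Handling and cell type thus cannot be told apart in this comparison, nor in spermatocytes against stage V. In spermatogonia 108 of the 224 clones were higher (48.2%) and 1 was lower. Over all clones 12% were higher and 10.3% lower, and among the clones at the stage I level 15.5% and 16.3%. Neither of these larger sets faced the floor above stage VIII. The difference had a median of 0.45 over the 224 clones and 0.02 over all clones, with a range from -0.55 to 2.14. The clone that was lower was tcay0040.j.20, named here after its value was seen. Without stage IIa replicate 1, which was the lowest array outside stage VIII, 91 clones were higher. The share of all clones in that fit was not counted.

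Some of the unnamed clones with the greatest difference, picked after their values were seen, show the size of this step. Clone 1rt73a10_c_a05 had a mean of 11.34 in spermatogonia and between 9.01 and 9.27 in stages I to V, a difference to stage IIa of 2.14 ± 0.18 (SE; limma adjusted p = 4.56e-11). Its means of 10.04 in spermatocytes and 9.83 in spermatids also lay above those of stages I to V. Its spermatocytes were called higher than stage V, a comparison in which handling differs as well. The clone stood at 8.05 in stage VIII. In tcav0002.g.20 the means were 10.75 in spermatogonia and 9.31 in stage IIa, and in 1rt34e08_c_c04 10.83 and 9.51. The latter was also at 10.51 in stage IIIb and 10.59 in stage V, so that its high levels were shared with maturing testis.

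From spermatogonia to spermatocytes 78 clones fell (34.8%) and 13 rose (5.8%). Over all clones 14.9% fell and 12% rose, and among the clones at the stage I level 22.1% and 10.9%. The median difference was -0.22 over the 224 clones and 0.01 over all clones. Both steps were passed by 70 clones, higher in spermatogonia than in stage IIa and lower again in spermatocytes (31.2%, against 3.99% of all clones and 5.8% at the stage I level). Both comparisons share the spermatogonia arrays. In these 70 clones the median of the means was 9.48 in stage IIa, 10.32 in spermatogonia, 9.62 in spermatocytes and 8.46 in stage VIII. Between the same fractions all 4 red blood cell clones (hba1, hba4, hbb1 and cahz) fell, with a median of -2.13, and all 4 late germ cell clones (cetn4, ift122, spata4) rose, with a median of 1.26. Of the 3 germ line clones 2 fell and 1 rose (median -0.88). Sertoli cell and collagen clones each fell in 1 of 3, and no Leydig cell clone was called. Their part in the 78 calls was not tested.

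Spermatids and spermatocytes could not be separated in these clones. None of the 224 was called in either direction, and 0.0665% of all clones were higher and 0% lower in spermatids. At an unadjusted p under 0.05, 2 were higher and 3 lower. Spermatid replicate 2 had the weakest correlation with its own group of any array. Over all clones, with each clone centred on its mean, the mean correlation with the other arrays of the group was 0.06 for spermatid replicate 2, 0.28 for replicate 1 and 0.30 for replicate 3, against 0.22 (stage IIb replicate 1) to 0.78 on the other arrays. Without spermatid replicate 2, 2 clones were lower in spermatids, with the share of all clones in that fit not counted.

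Between the immature stage IIa and the maturing stage V, 49 clones rose (21.9%) and 5 fell (2.23%), against 14.9% and 14.7% of all clones and 14.5% and 23.4% at the stage I level. The floor above stage VIII, which the larger sets did not face, left out clones low in stage V and high in stage VIII. The small share of falls is thus shaped by the choice. The median difference was 0.13 over the 224 clones and -0.04 over all clones. In the 49 clones that rose the median of the means was 9.28 in stage IIa, 10.06 in stage V and 8.53 in stage VIII. Of the 224 clones, 41 were higher both in stage V and in spermatogonia than in stage IIa (18.3%, against 5.44% of all clones), which share the stage IIa arrays. Spermatocytes and stage V testis, which holds many germ cells in and after meiosis, differed in few clones, in the set as on the whole array. Of the 224 clones, 10 were higher in spermatocytes (4.46%) and 7 higher in stage V (3.12%). These shares lay near those of all clones (3.01% and 3.78%) and of clones at the stage I level (3.49% and 5.51%). With arrays weighted by their quality, the 10 and 7 clones became 37 and 19, and the shares of all clones were not counted. Weights also raised the number of clones higher in stage V than in stage IIa, from 49 to 68. That share of all clones was not counted either. From stage IIa to stage V markers of other cells moved too. Red blood cell clones fell in 3 of 4 (median -1.89), Leydig cell clones in 3 of 4 (-1.69) and collagen clones in 2 of 3 (-1.60), and late germ cell clones rose in 4 of 4 (1.44). Sertoli cell clones fell in 2 of 3 (-0.98), and germ line clones rose in 2 of 3 and fell in 1 (0.95). Their part in the 49 rises was not tested.

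In 85 of the 224 clones none of the 5 comparisons was called (37.9%, against 48.6% of all clones), and at least 1 was called in 139 (62.1%, against 51.4%). For the 85 clones without a call, medians lay between 9.72 in stage IIa and 9.996 in spermatogonia, and stood at 8.88 in stage VIII. A missed threshold does not show that their levels were equal across these groups.

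**Figure D3:**
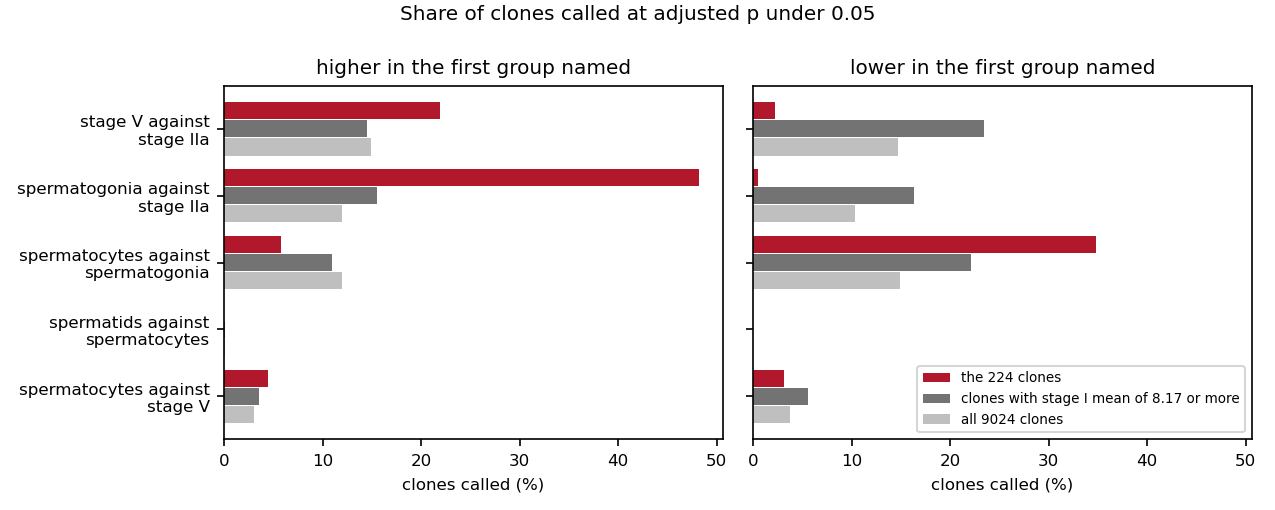
Percentage of clones called higher (left) or lower (right) in the first group named of each comparison, at a limma adjusted p under 0.05, among the 224 clones (red), the 4497 clones with a stage I mean of 8.17 or more (dark grey) and all 9024 clones (light grey). In spermatogonia against stage IIa, 48.2% of the 224 clones are higher and 0.446% lower, against 12% and 10.3% of all clones.

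A gene symbol was given for 8 of the 224 clones and none for 216. The symbols are hsp90ab1, trmt112, csn6, becn1, rfa3, if3c and the locus numbers LOC100136692 and LOC100136046. All 8 were also found in the trout RefSeq table. The symbols come from the array description alone, and other annotation of these clones was not used here. What follows on named genes therefore covers a small part of the set, and each gene is read through 1 clone of it.

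hsp90ab1 encodes a cytosolic form of the chaperone HSP90, which holds kinases, steroid receptors and other client proteins in an active shape. Its clone 1rt93e11_a_c06 read 9.52, 10.02 and 9.58 in stage VIII. Stage IIa arrays read 11.32, 11.54, 11.20 and 11.11, and spermatogonia between 11.61 and 12.44, with a median of 12.33. Spermatogonia and stage IIa did not overlap, and the difference was 0.92 ± 0.30 (SE; limma adjusted p = 0.0214). It missed the threshold without stage IIa replicate 4, at 0.86 with an adjusted p of 0.0573. Stage I read 9.08, 11.23, 11.25, 11.11 and 10.75, so that replicate 1 lay under all 3 stage VIII arrays while the other 4 lay above them.

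A second hsp90ab1 clone, 1rt139i10_c_e05, missed the limit with a gap of 0.46. It read 11.83, 11.50 and 12.10 in stage VIII and between 12.59 and 12.88 in spermatogonia, with a median of 12.76. Stage IIa arrays read 12.28, 12.40, 12.33 and 12.25. Again spermatogonia lay above stage IIa without overlap, by 0.43 (limma adjusted p = 0.0128). The clones differed in stage V against stage IIa. There 1rt139i10_c_e05 was called higher, by 0.45 (limma adjusted p = 0.0125), and 1rt93e11_a_c06 was not called (0.18, adjusted p = 0.724). Both clones of hsp90bb, a gene of the same chaperone family, were also lowest in stage VIII, with gaps of 0.44 and 0.46.

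trmt112 encodes the small partner that activates several methyltransferases acting on transfer RNA, ribosomal RNA and a translation release factor. Clone 1rt45l22_d_f11 read 8.10, 8.01 and 8.25 in stage VIII, below all other arrays. In spermatogonia it ran from 9.66 to 9.98 with a median of 9.79, and in spermatocytes from 8.27 to 9.35 with a median of 8.99. These fractions did not overlap, and spermatocytes were lower by 0.88 on the log2 scale (difference -0.88 ± 0.16, SE; limma adjusted p = 7.09e-05). Over stage IIa, at 9.004, 9.26, 9.52 and 9.27, spermatogonia were higher by 0.55 (adjusted p = 0.024, again without overlap). That call was lost without stage IIa replicate 1, at 0.46 with an adjusted p of 0.111, or replicate 2, at 0.55 with 0.054.

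csn6 encodes a subunit of the COP9 signalosome, which removes the ubiquitin-like protein NEDD8 from cullin ubiquitin ligases. In clone 1rt115j05_b_e03 stage VIII read 10.26, 9.79 and 9.64, below every other array, although replicate 1 came close to the lowest of stage I. Stage IIa read 10.50, 10.46, 10.44 and 10.50 and stage V 11.40, 11.43, 11.32 and 11.76. Stage V was higher by 1.00 ± 0.17 (SE; limma adjusted p = 2.45e-05), without overlap. Spermatocytes, from 10.87 to 11.65 with a median of 11.10, lay above spermatogonia, from 10.45 to 10.85 with a median of 10.69, by 0.50 (adjusted p = 0.00686).

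Other csn6 clones did not meet the gap. In tcad0006.o.02 stage VIII read 10.22, 9.43 and 9.39 and was still the lowest mean, with a gap of 0.02 and a drop of 0.81 from the mean of the 8 other groups. It rose from stage IIa to stage V by 1.71 (limma adjusted p = 7.28e-08) and from spermatogonia to spermatocytes by 0.87 (adjusted p = 1.63e-04). Its spermatogonia were also called higher than stage IIa, by 0.50 (limma adjusted p = 0.0489), which was not called in 1rt115j05_b_e03 (0.18, adjusted p = 0.441). Clone 1rt118k04_c_f02, at 12.43, 11.96 and 12.33 in stage VIII, had a gap of -0.04 and no call in the 5 comparisons. The 3 clones listed for csn6 thus disagreed on the level in spawning testis, and the rise in stage V was called in 2 of them.

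rfa3 encodes the smallest subunit of replication protein A, which coats single-stranded DNA during replication, repair and recombination. Its clone tcav0001.k.14 read 8.27, 8.40 and 8.45 in stage VIII, below all other arrays. In stage IIa it read 8.74, 8.72, 9.13 and 9.01 and in stage V 9.65, 9.83, 9.72 and 9.66, a rise of 0.81 ± 0.20 (SE; limma adjusted p = 0.00213) without overlap. In spermatogonia, from 9.18 to 9.75 with a median of 9.59, it was higher than in stage IIa by 0.65 (adjusted p = 0.0095).

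becn1 encodes beclin 1, part of the lipid kinase complex that starts autophagosomes. Its clone 1rt58e09_a_c05 overlapped between stage VIII, at 8.79, 8.57 and 8.48, and stages I and IIb, whose replicate 1 arrays read 8.71 and 8.67. Stage IIa read 9.39, 9.51, 9.17 and 9.20 and stage V 9.84, 10.26, 10.17 and 10.31. The rise of 0.83 ± 0.27 (SE) to stage V had a limma adjusted p of 0.0171. Spermatogonia ran from 9.18 to 10.14 and spermatocytes from 9.41 to 10.79, and neither of these comparisons was called.

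LOC100136692, in clone tcba0029.f.17, is given no function in the sources used here. It read 8.19, 7.31 and 7.81 in stage VIII. Stage IIa read 7.78, 9.26, 8.87 and 8.94, where replicate 1 lay among the stage VIII arrays. Stage V read 10.28, 10.17, 10.12 and 10.01, higher by 1.43 ± 0.24 (SE; limma adjusted p = 2.06e-05) with no overlap. Spermatogonia, from 9.28 to 10.22 with a median of 9.66, were higher than stage IIa by 1.00 (adjusted p = 0.00101).

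LOC100136046, in clone 1rt152d21_b_b11, had no function given either, and read 11.51, 11.45 and 11.61 in stage VIII and 11.73 or more on all other arrays. Its spermatocytes, from 11.96 to 12.77 with a median of 12.47, were higher than spermatogonia, from 11.73 to 12.54 with a median of 12.06, by 0.37 ± 0.13 (SE; limma adjusted p = 0.0327). The fractions overlapped, and the call was lost in 8 of 45 alternatives, with adjusted p up to 0.115. The clone of if3c, 1rt60d14_d_b07, read 10.23, 9.98 and 10.04 in stage VIII against 10.43 or more elsewhere. None of its 5 comparisons was called. The gene meant by this symbol could not be settled.

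**Figure D4:**
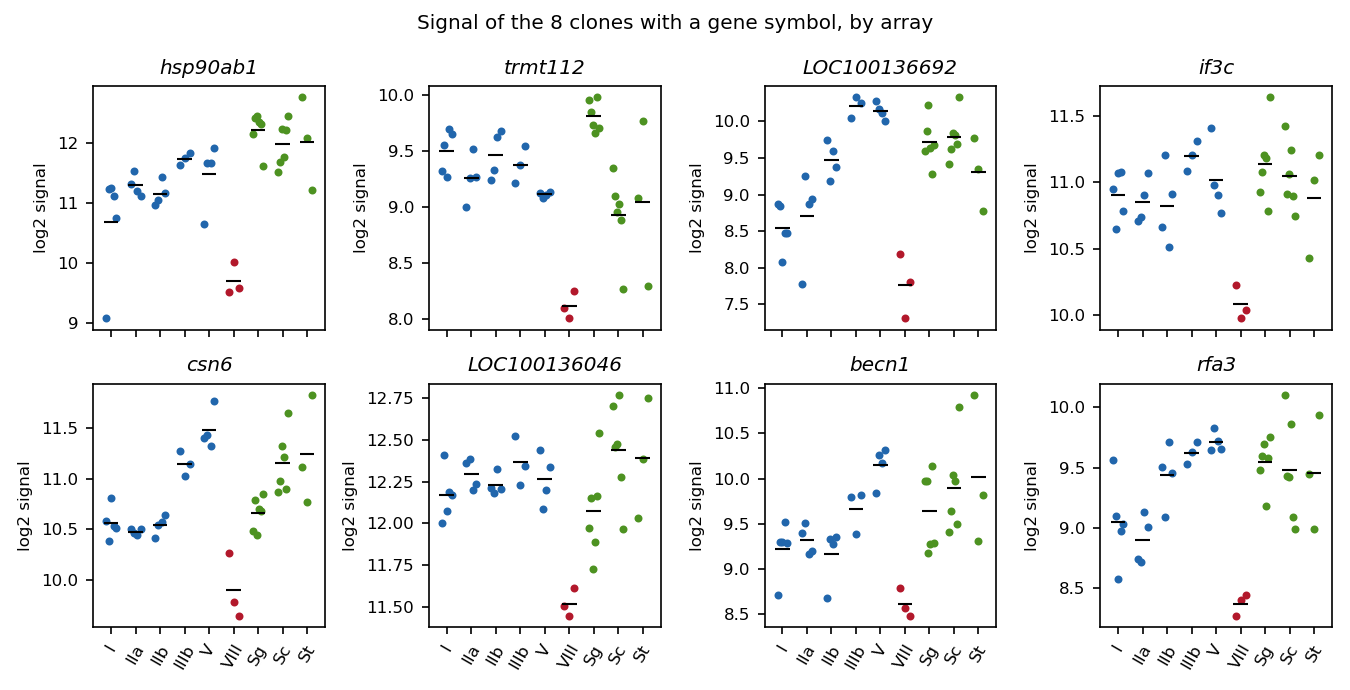
Log2 signal of the 8 clones with a gene symbol on each array, by group (points; black bars, group means; red stage VIII, blue other whole testes, green germ cell fractions; each panel has its own axis, which does not start at 0). Stage VIII is lowest in all group means, and single arrays of other groups reach into it for hsp90ab1, becn1 and LOC100136692.

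The largest gaps belonged to clones without a symbol. Clone 1rt91p14_d_h07 had the largest, 1.45, with 9.31, 8.71 and 8.56 in stage VIII, and no other array under 9.63. It read 9.63, 10.52, 10.58 and 10.52 in stage IIa and 11.67, 11.70, 11.64 and 11.78 in stage V, a rise of 1.38 ± 0.19 (SE; limma adjusted p = 1.17e-06). Its spermatids read 11.79, 11.88 and 11.52, as high as stage V. Its highest means were those of stage IIIb (11.76), spermatids (11.73) and stage V (11.70).

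The second largest gap, 1.40, was that of 1rt150h07_b_d04, which read 8.34, 8.19 and 7.63 in stage VIII. Its spermatogonia were higher than stage IIa by 0.83 (limma adjusted p = 0.000253), and its spermatocytes, from 9.69 to 10.39, were higher than stage V, at 9.11, 9.63, 9.76 and 9.65, by 0.53 (adjusted p = 0.041). Its means in the 3 fractions, 10.28, 10.06 and 10.12, lay above all means of whole testis, which reached 9.76 in stage IIb. Spermatocytes and spermatogonia differed by -0.22, which was not called (adjusted p = 0.286).

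In the other clones of this list, tcba0015.l.01, 1rt51j24_d_e12 and 1rt130f18_d_c09, the highest mean was that of spermatogonia, and the level fell in spermatocytes. Clone tcba0015.l.01 had a gap of 1.38 and read 8.06, 8.62 and 8.34 in stage VIII, below all other arrays. Its spermatogonia ran from 10.87 to 11.43 with a median of 11.09 and its spermatocytes from 9.60 to 10.32 with a median of 9.85, without overlap (difference -1.23 ± 0.18, SE; limma adjusted p = 2.43e-06). Clone 1rt51j24_d_e12 had a gap of 1.38 with 8.88, 8.94 and 8.35 in stage VIII, and fell by 1.01 from spermatogonia to spermatocytes. For 1rt130f18_d_c09 the gap was 1.35 with 10.20, 10.11 and 9.94 in stage VIII, and the difference between these fractions was -0.59 (adjusted p = 0.0124).

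Clones named for related functions were counted across the array to set these genes among others of their kind. Of 14 chaperone clones, standing for 8 genes, 8 were lowest in stage VIII (27.96% of all clones were), 1 was in the set (2.48% of all clones were) and 2, both of cct8, met its limits but were left out by the choice. In spermatogonia 10 of the 14 were higher than in stage IIa and 0 lower, against 12% and 10.3% of all clones, with a median difference of 0.73. These groups also differ in handling before RNA extraction, as given above. Of 10 clones for the proteasome and ubiquitin, 1 was in the set, that of csn6, and 2 were lowest in stage VIII. In stage V 8 of the 10 were higher than in stage IIa and 0 lower, against 14.9% and 14.7% of all clones. None of the 3 clones for translation factors, 4 for RNA binding and splicing, 2 for chromatin, 6 for the cytoskeleton and 14 for mitochondria was in the set. Of these, the Ddx4 clone met both limits, with a gap of 1.40, and was left out by the choice, and 1 myl1 clone met the gap, at 0.59, but not the stage I level. The ncl clone, for the nucleolar protein nucleolin, had a gap of 0.42. Whether if3c belongs with the translation factors is not known here.

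Markers of red blood cells and Leydig cells were high in stage VIII and those of the germ line low. All 4 red blood cell clones were highest there, with mean log2 levels of 12.34 to 12.41 per array against 7.47 to 11.49 on the other arrays. Leydig cell clones (star, cyp17a1, hsd3b1, lhcgr) were at 10.32 to 11.22 against at most 9.85, with 3 of 4 highest in stage VIII. Sertoli cell clones were at 9.19 to 9.65, within their range in stage IIa (9.31 to 9.93) or just under it. Of these, 2 of 3 were highest in stage VIII, while clu had a mean of 9.23 against 11.20 in stage I. The planned markers amh, cyp11a1, ae1, txndc6 and col1a2 had no clone under these symbols and were not read. The paper names a clone of Amh and one of Txndc6, and neither was looked up by clone name here. Its Amh staining of Sertoli cells weakened in maturing and spawning testes, and its Txndc6 staining lay in spermatocytes and spermatids. Collagen clones were at 11.84 to 12.18, with 0 of 3 highest, against 12.11 to 12.52 in stage I and 11.03 to 11.52 in stage V. Late germ cell clones were at 7.59 to 8.39, against 9.35 to 9.73 in stage V. They were as low in stage I (7.88 to 8.17), stage IIa (7.81 to 7.92) and spermatogonia (7.83 to 8.28), and 1 of 4 was lowest in stage VIII. Germ line clones (Ddx4, piwil2, sycp3) were at 8.51 to 8.996 against 9.28 to 10.75, all 3 lowest in stage VIII. Their gaps were 1.40 for Ddx4, 0.08 for piwil2 and 0.26 for sycp3. Of these, Ddx4 also met the limits of the set and was left out by the choice. The part of this shift in cell makeup in the drop of the 224 clones was not tested.

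The same markers accompany the comparisons of spermatogonia. Collagen clones stood at 9.61 to 10.60 in the spermatogonia arrays and 12.33 to 12.64 in stage IIa, and germ line clones at 10.28 to 10.75 and 9.28 to 9.77. The part of this in the 108 calls was not tested. Names of 54.0% of the 224 clones began with 1rt, against 47.3% of the clones at the stage I level and 38.7% of all clones. What this prefix stands for was not given in the sources used here.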

How the data were processed

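Expression was measured on 38 nylon cDNA arrays hybridised with radiolabelled targets, 1 per sample, in 9 groups of 3 to 6 samples taken from the labels. As the paper's Methods state, the authors divided each spot's signal by its vector signal, multiplied it by the median vector signal of the spot over arrays and deposited log2 values after quantile normalization with AMEN. These values (9216 entries, 192 of them empty, leaving 9024 clones, and 0 columns without a sample) were used unchanged. The authors removed clones with little spotted cDNA before testing. That filter was not applied here. The number of arrays limits the precision.

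A linear model of 9 group means was fitted to all arrays in limma 3.58.1 (R 4.3.3), without covariates and with moderated variances (prior df 7.3, residual df 29). Missing values, present in 3 of the 224 clones, left those arrays out of the clone's fit. The Methods used a permutation F-test. The limma F-test at their limit of 0.005 was used in its place. The script was tested on simulated data. Named were all members with 1 symbol, the 5 without a symbol that had the largest gap and 3 clones on each side of the limit. Members and lists were chosen with earlier results of these data known. Symbols came from the array description. The study's supplementary annotation was at hand only in part and gave none of the symbols. Functional lists were symbol patterns. Genes were taken by symbol alone, such as rbbp9 under chromatin and mrp1 and cox-1 under mitochondria, and may not all have the listed function. The DNA replication and cell cycle pattern found 2 clones, of rrmj2, both outside the set and without a replication role in their name. It missed rfa3, a replication gene whose clone is in the set. Alternatives changed the group summary, gap, normalization, treatment of low signals, array weights, variance prior, arrays in the fit and replicate block, and left out each array in turn.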

Additional observations from a re-analysis of the deposited data

Results flagged for a closer look

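In 8 of 84 sets of values (a named clone, or the median over the 224 clones, in a group of 4 to 6 arrays) 1 array stood far from the rest of its group by Dixon's test, where chance gives about 1 in 20. The clone of hsp90ab1 (1rt93e11_a_c06) had 9.08 in stage I replicate 1, with the next array at 10.75, and 11.61 in spermatogonia replicate 6, with the next at 12.15. The clone of becn1 (1rt58e09_a_c05) had 8.71 in stage I replicate 1 against 9.29 or more, and 8.67 in stage IIb replicate 1 against 9.28 or more. Clone 1rt91p14_d_h07 had 10.94 in stage I replicate 1, the highest of its group, against 10.43 or less, and 9.63 in stage IIa replicate 1 against 10.52 or more. Clone 1rt150h07_b_d04 had 9.19 in stage I replicate 1 against 9.54 or more, and tcba0015.l.01 had 9.87 in stage I replicate 3 against 10.21 or more. Of the 8 values, 6 came from arrays numbered 1, in stages I, IIa and IIb. The median over the 224 clones had no such array in any of the groups examined.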

How the results depend on the processing

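The number of clones chosen followed the gap, with 382 at 0.4 and 129 at 0.6. Group medians in place of means gave 269, of which 190 were shared with the 224. Raising signals under the array median to it gave 173. Leaving out 1 array gave 177 (without spermatid replicate 2) to 279 (without stage VIII replicate 1, with 204 of the 224 kept). Without stage VIII replicate 2 or 3, 194 and 186 of the 224 were kept. A renewed quantile normalization and median centring gave the same 224, but they changed the already normalized values by at most 0.0134 and 8.24e-06 and so test nothing. For the 224 clones, leave-one-out counts were 86 to 112 for the F-test, and for stage V against IIa 38 to 54 higher and 1 to 8 lower. For spermatogonia against IIa they were 91 to 112 higher and 0 to 3 lower, and for spermatocytes against spermatogonia 6 to 18 higher and 73 to 83 lower. For spermatids against spermatocytes they were 0 higher and 0 to 2 lower, and for spermatocytes against stage V 4 to 17 higher (4 without stage V replicate 2, 17 without spermatocyte replicate 6) and 4 to 9 lower (4 without stage V replicate 4). With array weights, 12 clones were lower in stage V than IIa, 24 higher in spermatocytes than spermatogonia, and 37 higher and 19 lower in spermatocytes than stage V. With only the arrays of the groups compared, these were 11, 6 and, for higher in spermatocytes than stage V, 6. The cause of these moves was not tested. Shares of all clones were counted under none of the alternatives, the leave-one-out fits and the replicate block included. The moves therefore cannot be set against those of all clones. On average, samples of the same number were no more alike than others. The mean correlation of deviations was -0.00161 over 127 pairs of the same number and 0.000754 for different numbers. Single pairs of the same number ran from -0.397 to 0.557, with 32 over 0.1, and 9 of 38 arrays were closest to their own number. An effect shared by only some arrays, such as those numbered 1, was not tested. With the replicate block, 87 clones passed the F-test, 48 were higher in stage V than IIa, 102 higher and 2 lower in spermatogonia than IIa, and 79 lower in spermatocytes. LOC100136046 had an adjusted p of 0.0506 there and 0.115 with only the groups compared. No direction turned among the comparisons of named genes that were called in the main fit. Comparisons not called there were not followed. Cell counts per sample and the signal of the spotted cDNA were not used, and 216 clones had no name in the annotation used here.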
